A study of Homo sapiens with 2 samples.

Results

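The MSX and DLX homeobox genes were followed in single human embryonic stem cells (hESCs) after stimulation with bone morphogenetic protein 4 (BMP4). The 8 genes, MSX1, MSX2 and DLX1 to DLX6, were taken by symbol, and all 8 were among the 33538 genes of the count tables. One library, labelled WT, came from H1, an established hESC line. The other, labelled GATA3 KO, came from KO-GATA3-06, 1 clone of H1 cells with a doxycycline-inducible Cas9 cassette in which GATA3 had been targeted. Both cultures were kept in mTeSR1 with BMP4 at 50 ng/ml for 48 h, according to titles and recorded durations, although the protocol text of the WT library gives 1 h. Clone, cassette and genotype differed together between the libraries and cannot be told apart. With 1 library per group no test was possible, so every interval below is a 95% interval that covers counting error only.

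Values are unique molecular identifiers (UMIs, 1 for each captured transcript 3′ end) per 1000000 UMIs of the library (CPM). Kept cells had at most 7500 detected genes and at most 25% mitochondrial counts, which left 2519 of 3802 WT cells and 4450 of 6221 GATA3 KO cells. The libraries shared 8 cell barcodes (0.210% of WT and 0.129% of GATA3 KO barcodes). For shares of cells, each cell was thinned to 10000 UMIs, leaving 2173 WT and 4038 GATA3 KO cells with medians of 47122 and 44830 UMIs before thinning. The GATA3 transcript did not check the labels, with 12.7 CPM in the WT library and 10.9 CPM in the GATA3 KO library, and a 3′ count cannot show a lesion. All directions therefore rest on the deposited labels. Of the hESC markers, POU5F1, SOX2, NANOG, PRDM14 and DPPA4 were all present. SOX2 (149.5 CPM in WT, 388.6 CPM in GATA3 KO) and PRDM14 (2.62 and 9.18 CPM) were at least 2-fold higher in the GATA3 KO library. The other 3 were within 2-fold. The 5 streak genes MIXL1, EOMES, TBXT, MESP1 and GSC were at least 2-fold lower in the GATA3 KO library.

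MSX and DLX proteins are homeodomain transcription factors of the NK-like class, named after the muscle segment homeobox and Distal-less genes of the fly. MSX1 and MSX2 are well-known direct targets of BMP-activated SMAD proteins. They mark the neural plate border, limb and other tissues that receive BMP, and both are expressed in early extraembryonic lineages. DLX genes lie in the genome as linked pairs whose members are transcribed toward each other and often share enhancers. They act in non-neural ectoderm, placodes, branchial arches and placenta, tissues in which the transcription factor TFAP2A (AP-2α) also acts, and HAND1 is a factor of extraembryonic and cardiac mesoderm and trophoblast.

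MSX1 (ENSG00000163132, 4859665 to 4863936) is on the plus strand of chromosome 4 and MSX2 (ENSG00000120149, 174724582 to 174730896) on the plus strand of chromosome 5 in GRCh38. The gene models of the 3 DLX pairs lay 9.76 kb (DLX1/DLX2, chromosome 2), 15 kb (DLX3/DLX4, chromosome 17) and 9.36 kb (DLX5/DLX6, chromosome 7) apart. In each pair the genes were on opposite strands. DLX1 (ENSG00000144355) spans 172084740 to 172089677 and DLX2 (ENSG00000115844) 172099438 to 172102900. DLX4 (ENSG00000108813) spans 49968588 to 49974959 and DLX3 (ENSG00000064195) 49990005 to 49995224. DLX6 (ENSG00000006377) spans 97005553 to 97011040 and DLX5 (ENSG00000105880) 97020396 to 97024950. All 8 are protein-coding.

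RefSeq promoter windows (GRCh38.p14) matched 5 of the 8 genes, MSX1, MSX2, DLX1, DLX2 and DLX6, with DLX3, DLX4 and DLX5 unmatched. The 250 bases before the start are shown for MSX1 and MSX2, the most abundant pair, and for DLX2 and DLX6, which differed at least 2-fold between the libraries. Capitals mark matches on either strand to any of 6 motifs: CCAAT, a general promoter box, the homeodomain cores TAATTA and also TAATTG, the GATA motif AGATAA, the SMAD1/5 core GGCGCC, and the TFAP2 motif GCCNNNGGC.
MSX1, chr4:4859415-4859664, plus strand: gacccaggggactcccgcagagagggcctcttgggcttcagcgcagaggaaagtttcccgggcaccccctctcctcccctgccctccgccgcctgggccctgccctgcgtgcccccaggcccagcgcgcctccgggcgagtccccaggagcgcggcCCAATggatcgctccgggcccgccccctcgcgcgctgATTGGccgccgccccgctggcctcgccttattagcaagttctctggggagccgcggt
MSX2, chr5:174724332-174724581, plus strand: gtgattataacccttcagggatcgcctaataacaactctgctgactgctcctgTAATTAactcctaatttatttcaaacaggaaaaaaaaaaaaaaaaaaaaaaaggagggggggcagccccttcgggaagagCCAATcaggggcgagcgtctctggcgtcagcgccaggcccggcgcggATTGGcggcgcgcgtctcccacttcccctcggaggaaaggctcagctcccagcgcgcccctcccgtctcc
DLX2, chr2:172102901-172103150, minus strand: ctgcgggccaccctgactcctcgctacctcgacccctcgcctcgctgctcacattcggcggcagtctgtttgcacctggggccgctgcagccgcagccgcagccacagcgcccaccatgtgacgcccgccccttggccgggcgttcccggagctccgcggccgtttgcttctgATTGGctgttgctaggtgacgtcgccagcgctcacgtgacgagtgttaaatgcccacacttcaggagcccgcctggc
DLX6, chr7:97005303-97005552, plus strand: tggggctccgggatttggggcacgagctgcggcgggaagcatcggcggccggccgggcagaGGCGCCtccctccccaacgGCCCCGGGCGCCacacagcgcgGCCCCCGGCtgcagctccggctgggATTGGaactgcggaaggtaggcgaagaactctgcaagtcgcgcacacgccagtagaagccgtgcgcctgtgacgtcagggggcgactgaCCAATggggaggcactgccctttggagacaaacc

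CCAAT was in the upstream 250 bases of all 5 members with a window, against 32.0% of 34943 RefSeq windows. The homeodomain core TAATTA, the sequence that MSX and DLX proteins themselves bind, was in MSX2 only (4.35% of all windows), and TAATTG was in none of the 5 (6.72%). AGATAA was in none of them (9.19%). DLX6 alone held GGCGCC (16.4% of all windows) and GCCNNNGGC (19.7%), and 1 match to each overlapped there. A match is a description of these letters and not of binding.

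MSX2, the most abundant member, was at nearly the same level in both libraries, and MSX1 was higher in the GATA3 KO library. MSX2 was at 40.3 CPM (39.1 to 41.6) in the WT library and 38.3 CPM (37.4 to 39.3) in the GATA3 KO library, from 4016 and 6720 UMIs. On the log2 scale of CPM plus 1 the ratio was -0.07 (-0.13 to -0.02). MSX1 had 814 UMIs (8.17 CPM, 7.62 to 8.76) in the first and 2465 UMIs (14.1 CPM, 13.5 to 14.6) in the second, which gives 0.72 (0.61 to 0.82) on the log2 scale. So MSX2 was about as frequent in each library, while MSX1 was 1.72 times as frequent in the GATA3 KO library. With cells of more than 7500 genes included, however, MSX1 stood at 0.08 on the log2 scale.

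All 6 DLX genes were higher in the GATA3 KO library, and DLX2, DLX5 and DLX6 were at least 2-fold higher. DLX5, which acts in placodes and in the developing skeleton, was the most abundant of them, at 4.03 CPM (3.64 to 4.44) in the WT library and 10.7 CPM (10.3 to 11.2) in the GATA3 KO library. Its log2 ratio was 1.22 (1.10 to 1.35). DLX6, its linked partner, followed with 1.19 CPM (0.990 to 1.43) in WT cells against 4.04 CPM (3.75 to 4.35) in GATA3 KO cells, and its log2 ratio was 1.20 (1.03 to 1.36). The ratios of both partners of this pair thus lay within each other's interval.

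The DLX1/DLX2 pair, best known from forebrain interneurons and the branchial arches, was scarcer. DLX2 went from 1.11 CPM (0.917 to 1.34) in the WT library to 5.05 CPM (4.72 to 5.39) in the GATA3 KO library, the highest log2 ratio of the 8 genes at 1.52 (1.35 to 1.68). DLX1 was at 0.231 CPM (23 UMIs) and 1.29 CPM (226 UMIs), a log2 ratio of 0.90 (0.74 to 1.02). Without the added 1 CPM the level of DLX1 was 5.58 times and that of DLX2 4.53 times as high, so the added constant held back the value of DLX1 more than that of DLX2. By that measure DLX3, from 10 WT UMIs, was 9.15 times as high, so the first rank of DLX2 depended on the constant.

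The DLX3/DLX4 pair, with roles in epidermis and placenta, was at the edge of what these libraries can count. DLX3 was at 0.10 CPM (10 UMIs) in the WT library and 0.918 CPM (161 UMIs) in the GATA3 KO library, below 1 CPM in both. It was the only member that missed the minimum of 1 CPM in the higher library, and its log2 ratio was 0.80 (0.67 to 0.89). DLX4 counts came to 0.874 CPM (0.70 to 1.08) against 1.37 CPM (1.20 to 1.55), and its log2 ratio of 0.34 (0.15 to 0.52) was the smallest of the DLX genes. The partners of this pair therefore differed from each other, with intervals of their ratios that did not overlap.

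Of the 7 members at 1 CPM or more in the higher library, 3 were at least 2-fold higher in the GATA3 KO library and 0 were at least 2-fold lower. Over all 13523 genes that met the same minimum, 2.06% were at least 2-fold higher and 2.27% at least 2-fold lower. The median log2 ratio of the 7 members was 0.90, that of DLX1, against 0.07 over all genes. DLX1 and DLX4 met the minimum in the GATA3 KO library alone, so they could enter only with a ratio above 0. Among the genes they were set against, TFAP2A went from 16.7 to 37.7 CPM (log2 ratio 1.13) and HAND1 from 11.4 to 12.6 CPM (0.13). The count of 3 depended on the constant added to the CPM: over all 8 members it was 5 with 0.1 CPM, which adds DLX1 and DLX3, and 0 with 5 CPM. With the mean of single-cell CPM it was again 3, but with DLX1 (1.00) in place of DLX5 (0.93).

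In the order of levels within a library, MSX2 came first, then MSX1 and DLX5, in both libraries. After them the order in the WT library was DLX6, DLX2, DLX4, DLX1 and DLX3, and the intervals of DLX6, DLX2 and DLX4 overlapped, as did those of DLX1 and DLX3. In the GATA3 KO library the order was DLX2, DLX6, DLX4, DLX1 and DLX3, and DLX4 and DLX1 overlapped. A UMI counts a molecule whatever its length, but the capture of 3′ ends can differ between transcripts, so these orders hold for counts only.

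**Figure D1:**
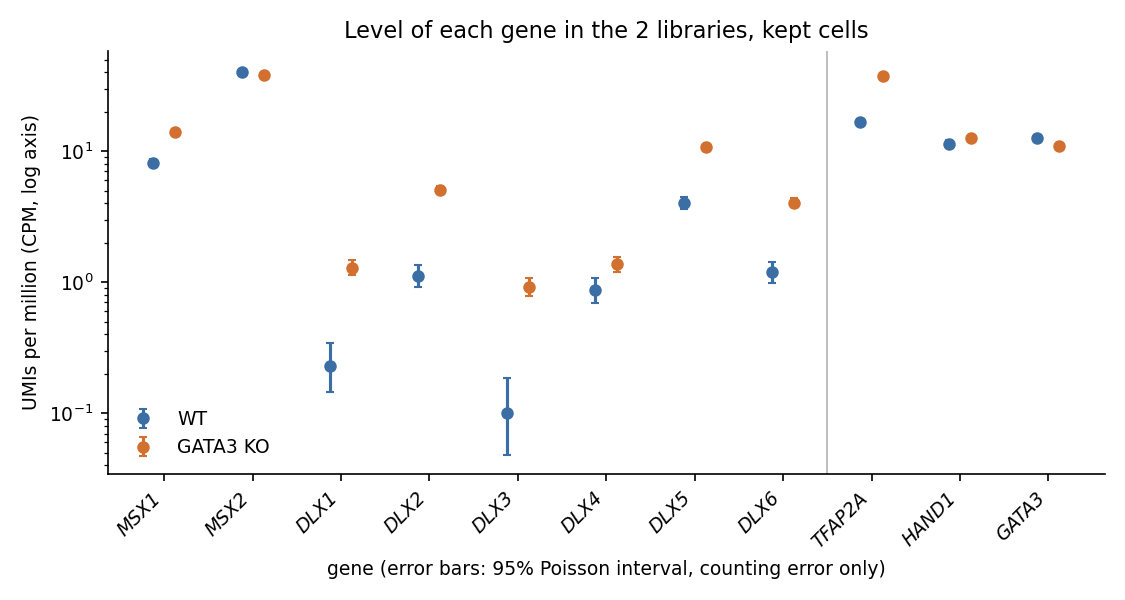
Level of each MSX and DLX gene and of TFAP2A, HAND1 and GATA3 in kept cells of the 2 libraries, in CPM on a log axis, with 95% Poisson intervals. MSX2 sits near 40 CPM in both libraries, while DLX2, DLX5 and DLX6 are higher in the GATA3 KO library.

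The size of these differences depended on cells above the limit of 7500 detected genes, 1012 in the WT library and 1265 in the GATA3 KO library. Such cells held between 52.2% (DLX4) and 77.0% (DLX1) of each member's UMIs in the WT library, but between 32.1% (DLX1) and 39.4% (DLX4) in the GATA3 KO library. Of the UMIs of all genes they held 48.9% in the WT library and 36.5% in the GATA3 KO library, so the members' shares were above that of all genes in the WT library, least so for DLX4, and on either side of it in the GATA3 KO library. Over all deposited cells the log2 ratios were 1.04 for DLX2, 0.95 for DLX6, 0.73 for DLX5, 0.68 for DLX3, 0.55 for DLX1, 0.34 for DLX4, 0.08 for MSX1 and -0.25 for MSX2. Only DLX2 then remained at least 2-fold higher. TFAP2A moved in the same way, from 1.13 to 0.62, and HAND1 from 0.13 to -0.67. The part of doublets among cells above the limit was not tested.

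**Figure D2:**
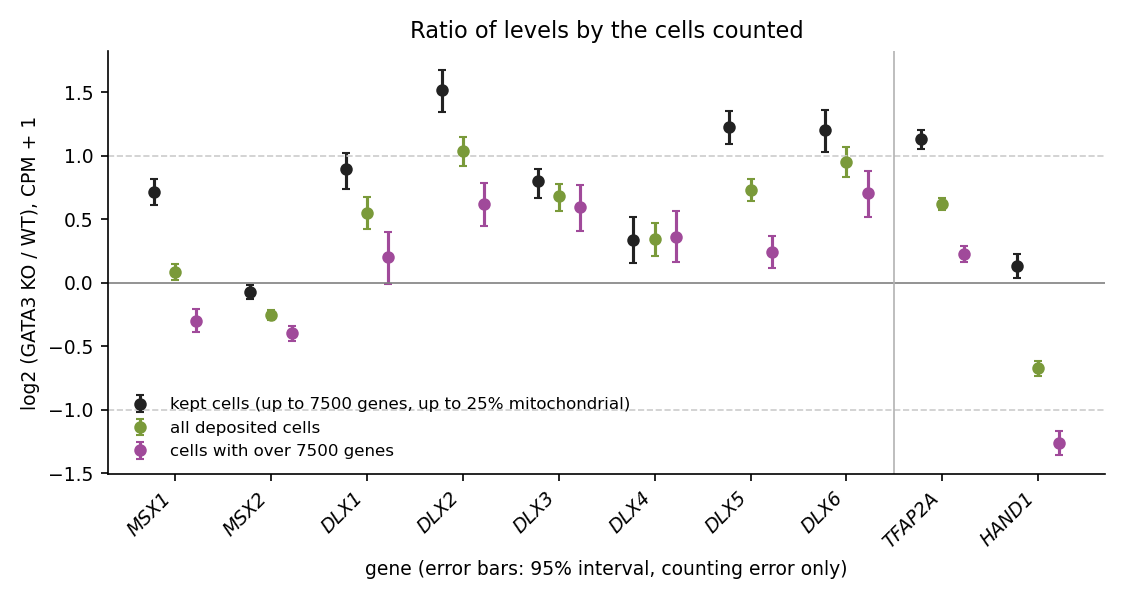
Log2 ratio of GATA3 KO over WT levels (CPM + 1) for each gene in kept cells, in all deposited cells and in cells with more than 7500 detected genes. Bars are 95% intervals of counting error, and dashed lines mark a 2-fold difference; DLX4 has nearly the same ratio in all 3, and MSX1 changes sign in the cells above the limit.

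At equal depth, 6 of the 8 genes were found in a larger share of GATA3 KO cells, and MSX2 in a smaller share. MSX2 was found in 25.8% of WT cells (560 of 2173, 23.9% to 27.7%) and 18.4% of GATA3 KO cells (745 of 4038, 17.3% to 19.7%). The difference was -7.32 points (-9.56 to -5.12). Yet with at least 2 UMIs required, the difference was 0.46 points (-1.07 to 1.94). The MSX2 transcript was thus spread over more cells in the WT library, with 1.54 UMIs per positive cell, and was held by fewer in the GATA3 KO library, with 2.02.

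MSX1 was found in 4.60% of WT cells and 6.19% of GATA3 KO cells, a difference of 1.59 points (0.38 to 2.74). That interval included 0 under 3 of 10 alternatives, with 0.84 points (-0.26 to 1.89) without the gene limit, 0.79 (-0.29 to 1.84) over all deposited cells and 0.32 (-1.25 to 1.86) without thinning. DLX5 was found in 2.81% (61 cells) and 6.19% (250 cells), a difference of 3.38 points (2.32 to 4.41). DLX2 was found in 1.33% and 3.76%, and DLX6 in 1.10% and 3.57%. DLX2, DLX5 and DLX6 were therefore rare in both libraries, and the interval of their difference lay above 0 under each of the 10 alternatives. DLX1 was found in 0.230% (5 cells) and 1.24% (50 cells), DLX3 in 0.0920% (2 cells) and 0.867% (35 cells), and DLX4 in 0.736% (16 cells) and 1.29% (52 cells). The interval of the DLX4 difference, 0.55 points (-0.01 to 1.06), included 0, but lay above 0 under 7 of 10 alternatives, among them no thinning (0.57 to 2.52). Without thinning, the shares were between 0.397% (DLX3) and 48.3% (MSX2) of WT cells and between 2.70% (DLX3) and 30.7% (MSX2) of GATA3 KO cells.

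Detection differed between the libraries for a large part of all genes. Of the 13523 genes tested, 36.1% were found in a larger and 26.3% in a smaller share of GATA3 KO cells by the same rule. Among the 7 members of at least 1 CPM, 5 were found more often and 1 less often.

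To see which cells carried these transcripts, cells were split by the transcripts found in them at 10000 UMIs. Cells with both TFAP2A and HAND1 numbered 45 in the WT library and 154 in the GATA3 KO library, cells with TFAP2A only 205 and 579, and cells with HAND1 only 49 and 38. Cells with neither but with MIXL1, EOMES or TBXT, genes of the primitive streak, numbered 824 and 166. Cells with SOX2 and none of these numbered 833 and 2958 and served as the background, since differentiated-cell transcripts there can come from free RNA. A further 217 and 143 cells had none of these transcripts. A transcript that is not found at this depth may still be present, so the sets are defined by detection only.

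MSX1 was found most often in cells with HAND1, but these sets were small. It was found in 46.7% (31.7% to 62.1%) of WT cells and 61.7% (53.5% to 69.4%) of GATA3 KO cells with TFAP2A and HAND1, and in 26.5% and 34.2% of cells with HAND1 only. In cells with TFAP2A only the shares were 12.2% and 17.3%. SOX2-only cells had MSX1 in 0.840% and 0.744%, so the shares in the TFAP2A or HAND1 sets of both libraries were far above that background.

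MSX2 was the member with the widest reach. It was found in 71.1% of WT and 87.0% of GATA3 KO cells with TFAP2A and HAND1, and in 46.3% and 54.2% of cells with TFAP2A only. It was also found in 31.9% (28.7% to 35.2%) of the WT cells with a streak transcript and in 24.7% (18.3% to 32.0%) of such GATA3 KO cells. In SOX2-only cells the shares were 8.40% and 6.12%. Of the 560 WT cells with MSX2, 263 (47.0%) were in the streak set, against 41 of 745 (5.50%) in the GATA3 KO library, whose streak set held 4.11% of its cells against 37.9% in the WT library.

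DLX5 and DLX2 were most frequent in cells with both TFAP2A and HAND1. DLX5 was found in 35.6% (21.9% to 51.2%) of WT and 53.2% (45.05% to 61.3%) of GATA3 KO cells with both transcripts, in 9.27% and 20.4% with TFAP2A only, and in 0.120% and 0.642% of SOX2-only cells. In cells with HAND1 only it was found in 4.08% of WT cells (2 of 49) and 23.7% of GATA3 KO cells, so the WT share was not above the 5.53% (12 of 217) of WT cells with none of these transcripts. DLX2 was found in 13.3% (5.05% to 26.8%) and 49.4% (41.2% to 57.5%) of cells with both, and its intervals did not overlap between the libraries. With HAND1 only, DLX2 was found in 8.16% and 23.7%. SOX2-only cells had DLX2 in 0 of 833 WT cells, which allows a share of up to 0.360%, and in 0.304% of GATA3 KO cells. Of all cells with DLX2, 50.0% of those in the GATA3 KO library but 6 of 29 (20.7%) in the WT library were in the set with both transcripts. That set held 3.81% of all GATA3 KO cells and 2.07% of all WT cells. The largest part in the WT library, 9 of 29 (31.0%), was in the streak set, below that set's 37.9% of WT cells. DLX2 was found in 1.09% of the WT streak set.

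DLX6 had a different spread from DLX2, with the largest part of its cells in the TFAP2A-only set, 12 of 24 WT cells (50.0%) and 80 of 144 GATA3 KO cells (55.6%). It was found in 6.67% of WT and 19.5% of GATA3 KO cells with both transcripts, and in 5.85% and 13.8% of cells with TFAP2A only. DLX1 was found in 6.67% (3 cells) and 20.8% (32 cells) of cells with both, and in no SOX2-only cell of either library (0 of 833 and 0 of 2958). DLX3 was found in 0 of 45 such WT cells, which allows a share of up to 6.67%, and in 9.74% of such GATA3 KO cells.

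DLX4 stood apart. Its share was 1.08% in SOX2-only WT cells and 0.980% in SOX2-only GATA3 KO cells. That set held 9 of the 16 WT cells with DLX4 (56.25%), against 38.3% of all WT cells. In the GATA3 KO library it held 29 of the 52 cells with DLX4 (55.8%), below its 73.3% of all cells. It was found in 3.90% (1.44% to 8.29%) of GATA3 KO cells with TFAP2A and HAND1 and in 7.89% (1.66% to 21.4%) of those with HAND1 only, and in none of the 45 WT cells with both. In all other sets of both libraries the interval of its share included the share in SOX2-only cells of that library.

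**Figure D3:**
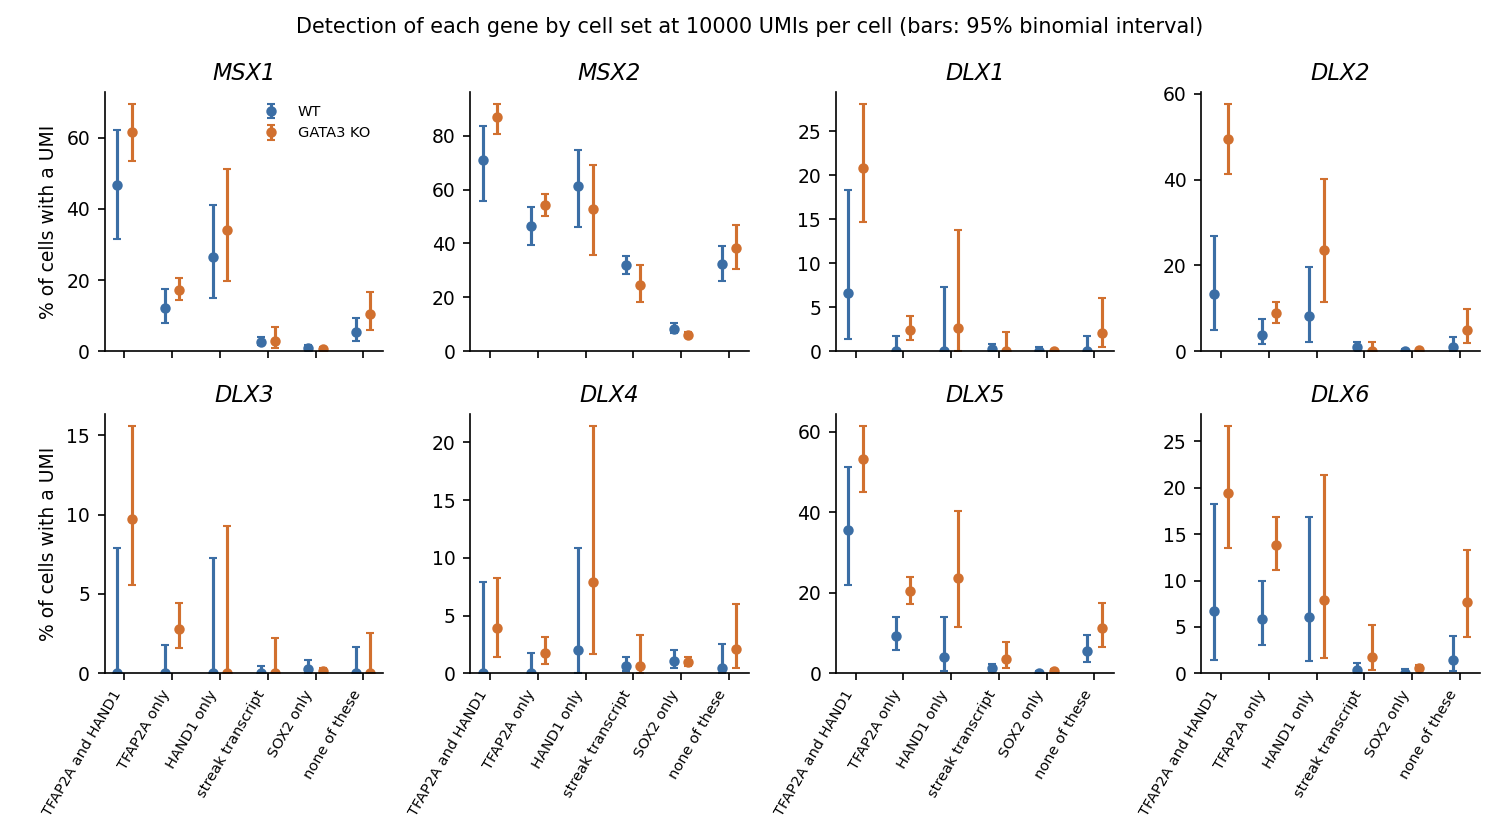
Share of cells with at least 1 UMI of each gene, at 10000 UMIs per cell, in 6 sets of cells split by detected TFAP2A, HAND1, streak and SOX2 transcripts, for the WT and GATA3 KO libraries. Bars are 95% binomial intervals; 7 of the 8 genes are highest in GATA3 KO cells with TFAP2A and HAND1, while DLX4 is low throughout and MSX2 is also present in streak-transcript cells.

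Levels within a set were compared next, because the sets had different sizes in the libraries. In cells with TFAP2A and HAND1, DLX2 was at 15.6 CPM (7 UMIs) in the WT library and 73.4 CPM (113 UMIs) in the GATA3 KO library, a log2 ratio of 2.17 (1.12 to 3.39). In the same cells the log2 ratios were 0.64 (0.07 to 1.26) for DLX5, 0.57 (0.13 to 1.04) for MSX1 and 0.50 (0.15 to 0.87) for MSX2. DLX1 and DLX6 rested on 3 WT UMIs each, with log2 ratios of 1.59 (0.06 to 3.36) and 1.55 (0.01 to 3.32). In cells with TFAP2A only, the log2 ratios were 1.45 for DLX2, 1.29 for DLX6, 0.97 for DLX5, 0.58 for MSX2 and 0.49 for MSX1. Within these sets the named members were thus higher in the GATA3 KO library, MSX2 included. The MSX2 interval included 0 in SOX2-only cells (-0.27, -0.59 to 0.07) and in streak-transcript cells (-0.33, -0.75 to 0.06). The sets were not alike between the libraries. With both transcripts, TFAP2A was at 215.6 CPM in WT and 279.9 CPM in GATA3 KO cells, and HAND1 at 360 and 255.2 CPM. With TFAP2A only, TFAP2A was at 138.0 and 185.3 CPM, and SOX2 was found in 28.8% and 62.7% of cells. The part of these differences in the ratios was not tested. DLX3 and DLX4 had 0 WT UMIs in both sets, as had DLX1 with TFAP2A only, so such ratios rest on the added 1 CPM. With both transcripts and with TFAP2A only, the DLX3 ratios were 3.42 (0.06 to 3.42) and 2.21 (0.61 to 2.21). Those of DLX4 were 2.29 (-1.20 to 2.29) and 1.45 (-0.19 to 1.45).

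The sets were then weighted to equal sizes. With the levels of the GATA3 KO cells in each set but the set sizes of the WT library, the log2 ratio to the WT library was 1.37 for DLX6, 1.02 for DLX5, 0.98 for DLX2, 0.73 for DLX1, 0.49 for MSX1 and 0.08 for MSX2. In the same thinned cells the ratios without weighting were 1.23, 1.10, 1.31, 0.93, 0.66 and -0.09. With the WT levels and the set sizes of the GATA3 KO library they were 0.06, 0.25, -0.09, 0.04, 0.15 and -0.38. MSX2 was the only 1 of the 8 genes below 0 without weighting, so no other could turn from below to above 0. No intervals were computed for the weighted values. The weighting evened out set sizes, but not the levels of TFAP2A, HAND1 and SOX2 within a set.

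More members were found in the same cell in the GATA3 KO library. Of cells with TFAP2A and HAND1, 11 of 45 WT cells (24.4%) and 97 of 154 GATA3 KO cells (63.0%) had at least 3 of the 8 transcripts. In cells with TFAP2A only these shares were 5.37% and 16.2%. At least 1 member was found in 44 of 45 and 150 of 154 cells with TFAP2A and HAND1, against 10.2% and 8.42% of SOX2-only cells. The highest number in 1 cell was 5 in the WT library and 6 in the GATA3 KO library.

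The relation to TFAP2A held for most members in both libraries. Cells with a TFAP2A UMI (250 of 2173 WT cells and 733 of 4038 GATA3 KO cells) were compared with all others of the same library. In the WT library the log2 ratio of positive over negative cells was 3.32 (2.82 to 3.78) for DLX5, 2.98 (2.58 to 3.37) for MSX1, 2.20 (1.44 to 2.80) for DLX6, 1.85 (1.08 to 2.53) for DLX2 and 1.51 (1.30 to 1.73) for MSX2. DLX1, at 0.99 (0.08 to 1.51) from 3 and 2 UMIs, was just below a 2-fold difference. In the GATA3 KO library the ratios were 4.04 for MSX1, 3.94 for DLX5, 3.85 for DLX2, 3.30 for MSX2, 3.02 for DLX6, 2.74 for DLX1 and 2.40 for DLX3, and 0.61 (0.03 to 1.17) for DLX4. Thus 5 members in the WT library and 7 in the GATA3 KO library were at least 2-fold higher in TFAP2A-positive cells, against 2.39% of 13661 and 3.4% of 13440 genes.

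MSX2 differed between the libraries both inside and outside TFAP2A-positive cells. In TFAP2A-negative cells MSX2 was at 32.6 CPM in the WT library and 13.7 CPM in the GATA3 KO library, and in positive cells at 94.8 and 143.8 CPM. It was found in 22.5% and 8.99% of the negative cells. The WT library thus had more MSX2 outside TFAP2A-positive cells and less inside them.

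HAND1 gave the same order of magnitude. In HAND1-positive cells (94 WT and 192 GATA3 KO) the log2 ratios in the WT library were 3.61 for MSX1, 3.23 for DLX5, 3.05 for DLX2, 2.18 for DLX6, 2.13 for MSX2, 1.93 for DLX1 and 0.26 for DLX4. In the GATA3 KO library they were 4.33 for MSX1, 4.27 for DLX2, 3.69 for DLX5, 3.69 for DLX1, 2.98 for MSX2, 2.42 for DLX3, 2.19 for DLX6 and 1.43 for DLX4. So 6 and 8 members were at least 2-fold higher in HAND1-positive cells, against 5.81% of 14577 and 5.51% of 13944 genes. Among them, DLX1 in the WT library rested on 3 UMIs in positive cells (0.56 to 2.58). DLX4 in the GATA3 KO library rested on 9 (0.53 to 2.25), and both intervals reached below a 2-fold difference. The splits by TFAP2A and by HAND1 share cells and are not independent of each other.

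In the GATA3 KO library, detection of 6 members was higher at each step in the number of TFAP2A UMIs, the exceptions being DLX3 and DLX4. DLX5 was found in 1.51% of cells with no TFAP2A UMI, 15.3% with 1, 28.5% with 2 and 47.6% with 3 or more. DLX2 was found in 0.756%, 7.90%, 20.3% and 31.7% of the same cells. MSX2 went from 8.99% to 46.6%, 66.5% and 82.7%. In the WT library MSX2 went from 22.5% to 45.2%, 55.6% and 73.3%, and DLX5 from 1.35% to 9.04%, 24.1% and 23.3%, where the last group held 30 cells. At each number of TFAP2A UMIs from 1 up, MSX2 intervals of the libraries overlapped. The share of cells with HAND1 was also higher with more TFAP2A UMIs, from 2.55% to 46.7% in the WT library and from 1.15% to 38.0% in the GATA3 KO library, and its part in these trends was not tested.

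**Figure D4:**
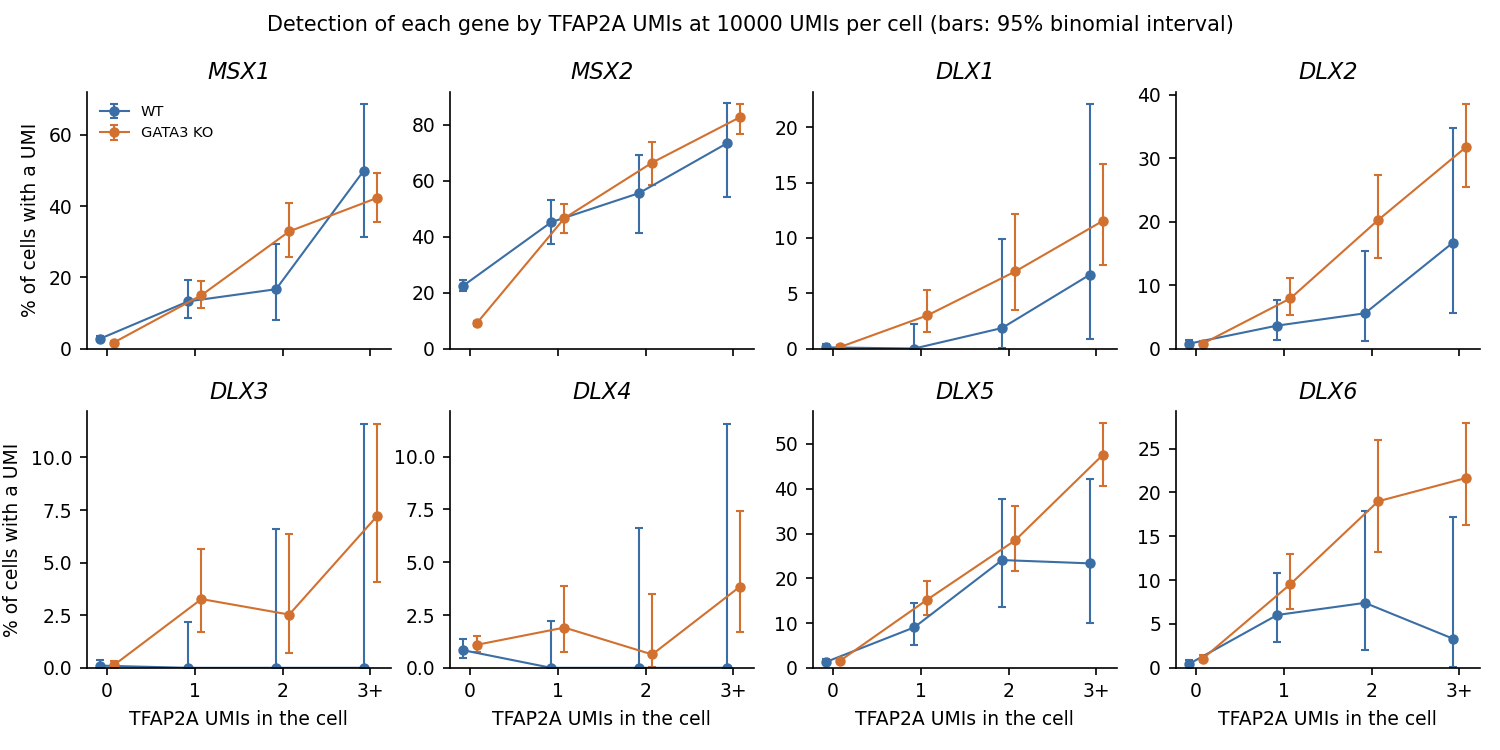
Share of cells with at least 1 UMI of each gene against the number of TFAP2A UMIs in the same cell, at 10000 UMIs per cell, for both libraries, with 95% binomial intervals. MSX2 starts at 22.5% in WT and 8.99% in GATA3 KO cells without TFAP2A and comes close in cells with it, while DLX4 shows no steady order.

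The linked pairs were asked whether partners were found in the same cells. In the GATA3 KO library DLX5 and DLX6 were found together in 61 cells (46.7 to 78.4), against 8.92 expected from the product of their shares. DLX1 and DLX2 were found together in 28 cells (18.6 to 40.5), against 1.88 expected. DLX3 and DLX4 were found together in 2 cells, against 0.451 expected, an interval (0.242 to 7.22) that includes the expectation. That pair was above expectation under 3 alternatives, with 6 cells against 1.44 at 20000 UMIs, 21 against 5.93 without thinning and 3 against 0.452 with another random draw. In the WT library DLX5 and DLX6 were found together in 9 cells against 0.674 expected, DLX1 and DLX2 in 1 cell (0.0253 to 5.57) against 0.0667 expected, and DLX3 and DLX4 in none. So 2 of 3 linked pairs in the GATA3 KO library and 1 of 3 in the WT library were above the product of their shares.

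Pairs that are not linked were found together as well. Of all 28 pairs of members, 23 in the GATA3 KO library and 12 in the WT library were above the product of their shares. Without the pairs that hold DLX4, these were 21 of 21 and 12 of 21. The share over pairs of other genes was not computed, so neither these counts nor those of the linked pairs are read as particular to the members. In the GATA3 KO library DLX2 and DLX5, on different chromosomes, were found together in 87 cells against 9.41 expected, 9.24 times as often (7.40 to 11.4). That lies between the values of the linked pairs DLX1/DLX2 (14.9, 9.89 to 21.5) and DLX5/DLX6 (6.84, 5.23 to 8.79). Of the 50 GATA3 KO cells with DLX1, 56.0% had DLX2, 62.0% had DLX5, 62.0% had MSX1 and 92.0% had MSX2.

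The expectation came closer when cell sets were kept apart. When the product was taken within each set and summed, 17.4 cells were expected for DLX1/DLX2 and 34.4 for DLX5/DLX6 in the GATA3 KO library, closer to the 28 and 61 found and still below their intervals. By that measure 11 of the 28 pairs in the GATA3 KO library and 6 in the WT library remained above expectation. In the GATA3 KO library they included DLX2/DLX5 (53.8 expected) and MSX1/MSX2 (202 cells against 152.1 expected).

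**Figure D5:**
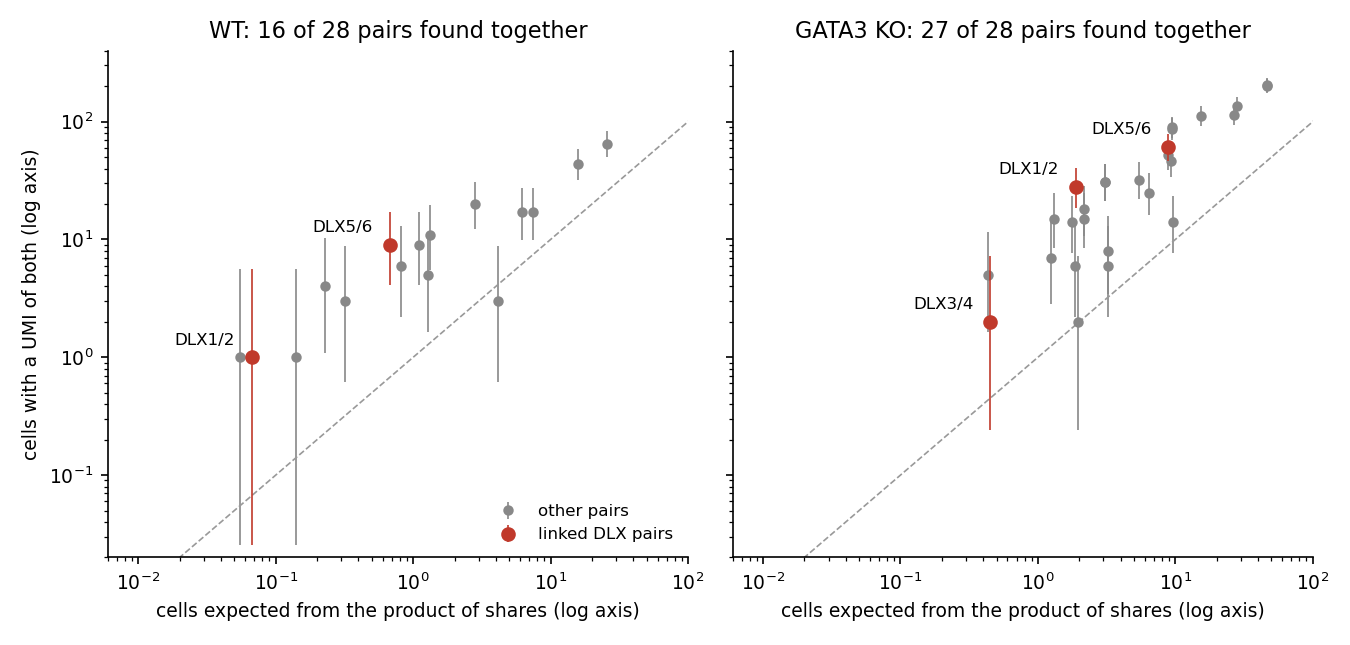
Cells with both genes of a pair, at 10000 UMIs per cell, against the number expected from the product of the shares of both genes, on log axes, for each library. Bars are 95% Poisson intervals, the dashed line marks equality and linked DLX pairs are in red; pairs never found together are not drawn, and the linked pairs lie among the others.

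DLX6 lies within DLX6-AS1, an antisense RNA gene, over all 5488 of its bases, so reads of the one could be counted for the other if strand was not used. DLX6-AS1 was at 0.743 CPM in the WT library and 1.32 CPM in the GATA3 KO library, a log2 ratio of 0.41 (0.23 to 0.59), against 1.20 for DLX6. DLX6 and DLX6-AS1 were found together in 2 WT cells against 0.210 expected and in 13 GATA3 KO cells against 1.75 expected. DLX5 and DLX6-AS1, which do not overlap, were found together in 31 GATA3 KO cells against 3.03 expected.

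Genes whose counts varied most like a member's across cells were sought for MSX1, MSX2 and DLX5, the members found in at least 2% of thinned cells of both libraries. Among 8921 candidates, and ranked by the smaller Pearson correlation of the 2 libraries, MSX1 came closest to POSTN (0.34 in 2173 WT cells and 0.47 in 4038 GATA3 KO cells), RHOBTB3, CLDN10, FN1 and TBX3. MSX2 came closest to HPGD (0.40 and 0.65), NTS, KRT18, BAMBI and PCAT14. DLX5 came closest to HAPLN1 (0.37 and 0.44), BAMBI, BMP4, HPGD and CLDN10. BAMBI and HPGD were shared by MSX2 and DLX5, and CLDN10 by MSX1 and DLX5. BAMBI is a BMP pseudoreceptor and itself a BMP target, POSTN and FN1 encode matrix proteins, and TBX3 is a T-box factor. All of these values come from sparse counts at one depth and describe these cells.

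Genes of BMP signaling around the members did not move as one. Of 21 listed genes, 19 were at 1 CPM or more, of which 2 were at least 2-fold higher in the GATA3 KO library, 0 at least 2-fold lower, and 17 in between, with a median log2 ratio of 0.10. The ligand BMP4 was at 27.8 CPM in the WT library and 64.8 CPM in the GATA3 KO library (1.19), and ID1, an inhibitor of helix-loop-helix factors, at 465.7 and 1046 CPM (1.17). The ligand BMP2 (7.26 and 3.21 CPM, -0.97) and the inhibitory SMAD7 (8.79 and 4.005 CPM, -0.97) were at the other end. The highest members of this list were thus a ligand and a target, and the lowest a ligand and an inhibitor.

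Genes of non-neural ectoderm and its border leaned the way of the DLX genes. Of 18 listed, 13 were at 1 CPM or more, of which 4 were at least 2-fold higher in the GATA3 KO library and 0 at least 2-fold lower, with a median of 0.57. GATA2, a relative of GATA3, had the highest ratio, from 2.02 to 7.75 CPM (1.54), followed by TFAP2A, and the lowest were SIX4 (-0.50) and EYA1 (-0.24), which act in placodes. Among 12 genes of amnion and trophectoderm, which share GATA2, GATA3, TFAP2A and TFAP2C with that list, 3 of 11 were at least 2-fold higher, with a median of 0.33, from ISL1 (-0.60) to GATA2. Such a lean was not particular to these lists. The median was 0.83 for 6 measured neural ectoderm genes and 0.69 for 5 pluripotency genes, 2 of the latter at least 2-fold higher. For the streak genes it was -3.35.

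Of 38 other NK-like homeobox genes, 7 were at 1 CPM or more, and HMX1, from 5.78 to 15.1 CPM (1.25), was the only one at least 2-fold higher. The lowest was NANOG (75.6 to 55.7 CPM, -0.44), and the median was 0.15. In kept cells the median of the MSX and DLX genes was 0.90, the ratio of DLX1, against 0.15 for these relatives, with only 7 measured genes on each side. DLX1 (0.231 CPM in WT) and DLX4 (0.874 CPM in WT) met the minimum in the GATA3 KO library alone, as did EMX1 (0.482 CPM in WT) among the relatives. Such genes could enter only with a ratio above 0. Over all deposited cells the ratio of DLX1 was 0.55. Of 9 neural ectoderm genes, 6 passed, 3 of them at least 2-fold higher, from HESX1 (0.41) to IRX2 (1.26), and the streak genes ran from -4.77 (MIXL1) to -3.03 (GSC).

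Of the genes annotated within 100 kb, most were long non-coding RNAs near 0. Beside DLX5/DLX6, SDHAF3, an assembly factor of mitochondrial complex II, had 75.5 CPM in WT cells against 39.4 CPM in GATA3 KO cells. Its log2 ratio of -0.92 (-0.97 to -0.87) ran opposite to those of both DLX genes. Beside DLX1/DLX2, METAP1D and SLC25A12 had ratios of 0.01 and -0.06. Beside DLX3/DLX4, ITGA3 stood at 0.37 and PDK2 at 0.67. Beside MSX1, STX18-AS1 stood at -0.23, and no neighbor of MSX2 reached 1 CPM. The higher levels of DLX1, DLX2, DLX5 and DLX6 thus had no counterpart in the protein-coding genes next to them.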

How the data were processed

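The 2 single-cell RNA libraries were analysed, with groups from the labels. Per the labels and methods, the authors used the 10x Chromium 3′ v3 kit and Cell Ranger 3.0.2 with GRCh38, and deposited raw UMI counts per gene and cell, 1 matrix per library, holding 200569649 (WT) and 284280464 (GATA3 KO) UMIs. Counting with strand was not given in the sources used here. Reads of near-identical copies can be lost.

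Cells above 7500 genes or 25% mitochondrial counts were removed. Scrublet (scanpy 1.11.5) called 1 and 2 cells as doublets and was taken not to have worked, so doublets were kept; removing the highest scores at 0.8% per 1000 cells was an alternative. Thinning drew 10000 UMIs per cell without replacement (seed 42) and left out 346 and 412 shallower cells. Levels carry exact Poisson, shares Clopper-Pearson and ratios exact binomial intervals at 95%. A count of 0 is given a limit of 3. A difference of shares counts when its interval excludes 0. Folds are log2(CPM + 1). TMM factors came from edgeR 4.0.16, other steps from Python 3.11.15 with numpy 2.4.6 and scipy 1.17.1. Scripts were tested on simulated data. Positions are from GENCODE v44.

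The members, lists, splits and alternatives were chosen with earlier results of these data known. All 8 members are named, with TFAP2A, HAND1 and GATA3, up to 4 extreme genes per list, neighbors within 100 kb and the 5 most alike genes per member. Other marker lists gave FOXD3 as the 1 of 2 measured neural crest genes at least 2-fold higher, SOX17 as the 1 measured endoderm gene (-3.32), COL1A1 as the 1 measured fibroblast gene (0.91), and no endothelial or blood gene at 1 CPM.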

Additional observations from a re-analysis of the deposited data

Results flagged for a closer look

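Cells with more than 7500 detected genes, which the comparisons leave out, numbered 1012 in the WT library and 1265 in the GATA3 KO library. In these cells DLX2 to DLX6 were above the WT library, which served as the control, with an interval of the log2 ratio above 0. The share of all genes with such an interval in these cells was not computed, so no count of members is read from it. DLX6 stood at 0.70 (0.52 to 0.88), DLX2 at 0.62 (0.45 to 0.79), DLX3 at 0.60 (0.41 to 0.77), DLX4 at 0.36 (0.16 to 0.56) and DLX5 at 0.24 (0.12 to 0.37). The other members were DLX1 at 0.20 (-0.01 to 0.40), MSX1 at -0.30 (-0.39 to -0.21) and MSX2 at -0.40 (-0.45 to -0.34), while HAND1 stood at -1.26 and TFAP2A at 0.23. Both libraries had members in these cells at levels that can be counted, such as MSX1 at 19.6 and 15.8 CPM and DLX2 at 2.52 and 4.40 CPM. How many of these cells hold material of 2 cells was not tested.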

How the results depend on the processing

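No paired analysis was possible because each group had 1 library, and for the same reason no library could be left out. The number of members at least 2-fold higher in the GATA3 KO library, 3, was 1 without the upper limit on detected genes and 1 over all deposited cells. It was 5 with 0.1 CPM added and 0 with 5 CPM added, and stayed within 1.5 times under the other 5 alternatives, although under the mean of single-cell CPM DLX1 (1.00) stood in for DLX5 (0.93). The number found less often, 1, was 0 when at least 2 UMIs were required, where the MSX2 difference turned to 0.46 points. The number found more often, 6, was also 6 without the gene limit, over all deposited cells and without thinning, but there DLX4 stood in for MSX1. The number of linked WT pairs above the product of their shares, 1, was 0 at 5000 UMIs, where no cell had both DLX5 and DLX6. It was 2 at 20000 UMIs, without thinning and with another random draw (seed 43), which added DLX1/DLX2 with 2, 13 and 3 cells. The same 3 alternatives added DLX3/DLX4 in the GATA3 KO library, for 3 pairs in place of 2. The other counts stayed within 1.5 times of their value under every alternative. Of 472 values of single members under the alternatives, 378 stayed within the interval of the value reported, 93 moved beyond it and 1 reversed, the MSX2 difference above. Removing the highest doublet scores moved 2 of 48 values. TMM scaling moved 0 of 8, with factors of 0.995 and 1.005. The alternatives without the gene limit differ by the added cells alone. The cause of the other moves was not tested. Depth limits DLX1, DLX3 and DLX4 most, with 5, 2 and 16 positive WT cells at 10000 UMIs.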
